A study of Mus musculus with 12 samples.

Results

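The 20 deposited super-enhancer (SE) subregions around the naive pluripotency genes Prdm14, Tfcp2l1, Tbx3, Zfp42 and Tdh were examined, of 671 subregions in all. A subregion was taken when it overlapped 1 fixed window of the mouse genome build mm9 around its gene. Within the windows subregions were taken by position alone, while the 5 loci themselves were chosen with earlier results of these data known. This gave 7 subregions at Prdm14, 2 at Tfcp2l1, 8 at Tbx3, 1 at Zfp42 and 2 at Tdh. All 20 are DM subregions, which are unmethylated in embryonic stem cells (ESCs) and gain CpG methylation in primed epiblast stem cells. The series holds 488 DM subregions and 183 PU subregions, which stay unmethylated in both cell states, and no PU subregion lies in these windows. The genes give the loci their names by position, and since ChIP-seq measures no RNA their expression was not checked here.

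MED1 and H3K27ac were profiled by ChIP-seq in mouse ESCs that lack both copies of Esrrb (Esrrb-/-) and in control Esrrb fl/fl ESCs, whose floxed Esrrb alleles are intact and which the labels also class as wild-type. Both lines were grown on gelatin in medium with serum and LIF, and whether either is 1 clone is not given in the sources used here. The study made 12 libraries, 2 each of MED1, H3K27ac and input per genotype, but the values used here are 1 pooled RPKM per subregion, antibody and genotype. RPKM give the read number per kilobase, set against a total for each of the 4 conditions, and that total is not given in the sources used here. The reads recovered from the RPKM imply totals of 424897 in control and 230504 in Esrrb-/- ESCs for MED1, of which 68.7% and 56.7% lie in the 671 subregions, and for H3K27ac 44.3% and 61.7% of the implied totals lie there. The subregions cover 833 kb in all. The paper's reporting summary lists far more mapped reads for every library. Summed per condition they are similar in the 2 genotypes, so these totals are not the mapped read numbers. Which reads the totals count is not given in the sources used here. The values are pooled, so the spread between the 2 libraries of a condition is unknown. No difference between genotypes has a replicate check, and no test was made.

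Naive pluripotency is the state of the pre-implantation epiblast, and a network of transcription factors that includes ESRRB, an orphan nuclear receptor, sustains it in ESCs. MED1 is a subunit of Mediator, the co-activator complex that links factors bound at enhancers to RNA polymerase II, and H3K27ac is a histone mark of active enhancers and promoters. In this network Prdm14 encodes a PR domain protein that restrains FGF signalling and DNA methylation, Tfcp2l1 and Tbx3 encode transcription factors, Zfp42 encodes the zinc finger protein REX1 and Tdh encodes threonine dehydrogenase, a mitochondrial enzyme on which mouse ESCs depend.

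ESRRB binds DNA at sequences that hold AAGGTCA. These letters were looked for on both strands of every subregion, and 15 matches were found in 8 of the 20 subregions (40.0%), against 184 of 488 DM subregions (37.7%) and 52 of 183 PU subregions (28.4%). The stretches around the 5 matches at Tbx3, in 4 subregions, are shown first because these 4 subregions ranked between 9 and 34 of 671 from the lowest MED1 change. Each stretch has 20 bases on either side, reads 5′ to 3′ on the strand of the match, and has AAGGTCA in capitals.
Tbx3 subregion 1, chr5:120131373-120131419, plus strand: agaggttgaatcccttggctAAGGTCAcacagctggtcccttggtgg
Tbx3 subregion 2, chr5:120137090-120137136, plus strand: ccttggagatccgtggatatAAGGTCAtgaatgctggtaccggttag
Tbx3 subregion 6, chr5:120160838-120160884, plus strand: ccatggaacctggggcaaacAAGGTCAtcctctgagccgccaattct
Tbx3 subregion 8, chr5:120163181-120163227, plus strand: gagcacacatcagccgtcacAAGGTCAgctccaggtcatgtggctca
Tbx3 subregion 8, chr5:120163329-120163375, minus strand: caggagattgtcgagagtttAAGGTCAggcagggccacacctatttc

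The matches at Prdm14 and in the first Tdh subregion are shown for contrast, since with RPKM as deposited MED1 was less reduced or not reduced there. Counted as reads with no scaling, MED1 was lower in Esrrb-/- ESCs at each of these subregions. Prdm14 subregion 5 rests on only 46 MED1 reads in control and 22 in Esrrb-/- ESCs. The match in Prdm14 subregion 5 is the only 1 among the 20 subregions to extend to TCAAGGTCA, a longer sequence that contains AAGGTCA and that was found in 62 of 488 DM subregions (12.7%), and there the capitals mark all of its letters.
Prdm14 subregion 2, chr1:13066532-13066578, plus strand: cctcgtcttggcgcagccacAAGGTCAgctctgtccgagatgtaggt
Prdm14 subregion 2, chr1:13066717-13066763, minus strand: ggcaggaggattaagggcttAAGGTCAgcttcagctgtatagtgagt
Prdm14 subregion 5, chr1:13091032-13091080, plus strand: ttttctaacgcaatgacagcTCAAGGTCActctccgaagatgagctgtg
Tdh subregion 1, chr14:64122036-64122082, plus strand: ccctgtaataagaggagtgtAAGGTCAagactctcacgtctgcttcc
Tdh subregion 1, chr14:64122182-64122228, plus strand: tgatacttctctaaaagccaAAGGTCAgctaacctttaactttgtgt

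Tdh subregion 2 held 5 further matches and the Tfcp2l1 and Zfp42 subregions held none. The single Zfp42 subregion is shown by its other matches, 2 to GGGTGTGG, a sequence bound by KLF factors, and 1 to TTCCNGGAA, a sequence bound by STAT factors, each in capitals.
Zfp42 KLF match, chr8:44406157-44406204, plus strand: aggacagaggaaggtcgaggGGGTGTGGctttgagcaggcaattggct
Zfp42 KLF match, chr8:44406266-44406313, plus strand: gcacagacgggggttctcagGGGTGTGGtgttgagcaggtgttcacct
Zfp42 STAT match, chr8:44405948-44405996, plus strand: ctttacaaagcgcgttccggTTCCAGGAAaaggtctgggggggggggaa

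With RPKM as deposited, MED1 was lower in Esrrb-/- than in control ESCs at 4 of the 5 loci and close to control at Prdm14. With reads not scaled it was lower at all 5 loci, with a summed log2 fold change of -0.71 at Prdm14. The change of a subregion is given as a log2 fold change, the log2 of Esrrb-/- RPKM plus 1 over control RPKM plus 1, so values below 0 mean less signal in Esrrb-/- ESCs. A subregion is counted as lower or higher when it is past 1.5 times, which is 0.585 on the log2 scale. MED1 was lower by 1.5 times at 11 of the 20 subregions (55%), against 26.8% of all 671 subregions and 30.7% of the 488 DM subregions. It was higher by 1.5 times at 1 of the 20 (5.00%), against 14.8% of all and 15.2% of DM subregions. The median MED1 log2 fold change was -0.64 over the 20 subregions, -0.14 over all 671 and -0.18 over the 488 DM subregions. Of the 11 subregions lower in MED1, 6 were at Tbx3, and without the Tbx3 locus the count was 5 and the median -0.17.

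With RPKM as deposited the median of H3K27ac lay near 0. H3K27ac was lower by 1.5 times at 4 of the 20 subregions (20.0%), against 15.1% of all and 18.0% of DM subregions. It was higher by 1.5 times at 2 of the 20 (10.0%), against 30.6% of all and 21.5% of DM subregions. The median H3K27ac log2 fold change was 0.02 over the 20 subregions, 0.24 over all 671 and 0.12 over the DM subregions. The median over the 20 was -0.22 centred on the median of all subregions, -0.46 with reads scaled to their sum over all subregions and -0.22 with reads not scaled. MED1 was lower by 1.5 times without H3K27ac being lower by 1.5 times at 9 of the 20 subregions (45%), against 19.7% of all and 21.9% of DM subregions. Centred, or with reads scaled to their sum, only 3 of these 9 remained (15%), Tfcp2l1 subregion 2 and Tbx3 subregions 1 and 6. The shares were then 13.7% and 7.45% of all subregions respectively, and 15.4% and 8.2% of DM subregions. With reads not scaled the count was 11 (55%), against 56.3% of all and 53.1% of DM subregions. As deposited and without the Tbx3 locus it was 4 of 12, to be set beside the 19.7% and 21.9% above. These alternatives to the joint count were chosen after seeing the data.

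These directions hold for RPKM as deposited. Counted as reads with no scaling, each MED1 log2 fold change lies 0.88 lower and each H3K27ac log2 fold change 0.24 lower, and MED1 is then lower at all 5 loci. The subregions lower and higher by 1.5 times then number 17 and 0 for MED1 and 7 and 0 for H3K27ac. With reads scaled to their sum over all subregions they number 6 and 2 for MED1 and 9 and 0 for H3K27ac, and centred on the median of all subregions 7 and 1, and 7 and 0. The shares of all 671 subregions past 1.5 times under these scalings are not given here. Each scaling shifts all subregions alike, so these counts are not read as particular to the 20. Centred, MED1 was no longer lower by 1.5 times at Tbx3 subregion 4, Zfp42 and both Tdh subregions, and with reads scaled to their sum also not at Tfcp2l1 subregion 1. The reads behind each RPKM were recovered from the RPKM and the lengths of the subregions, and they give a 95% counting interval for each log2 fold change that covers counting error only. Over the 20 subregions, MED1 rested on 15 to 2264 reads in control and 5 to 780 in Esrrb-/- ESCs, and H3K27ac on 40 to 3352 and 33 to 3597 reads. Over all 671 subregions the reads summed to 291893 and 130733 for MED1 and to 618492 and 730828 for H3K27ac, in control and Esrrb-/- ESCs respectively. The interval of the log2 fold change included 0 at 6 of the 20 subregions for MED1 and at 7 for H3K27ac.

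**Figure D1:**
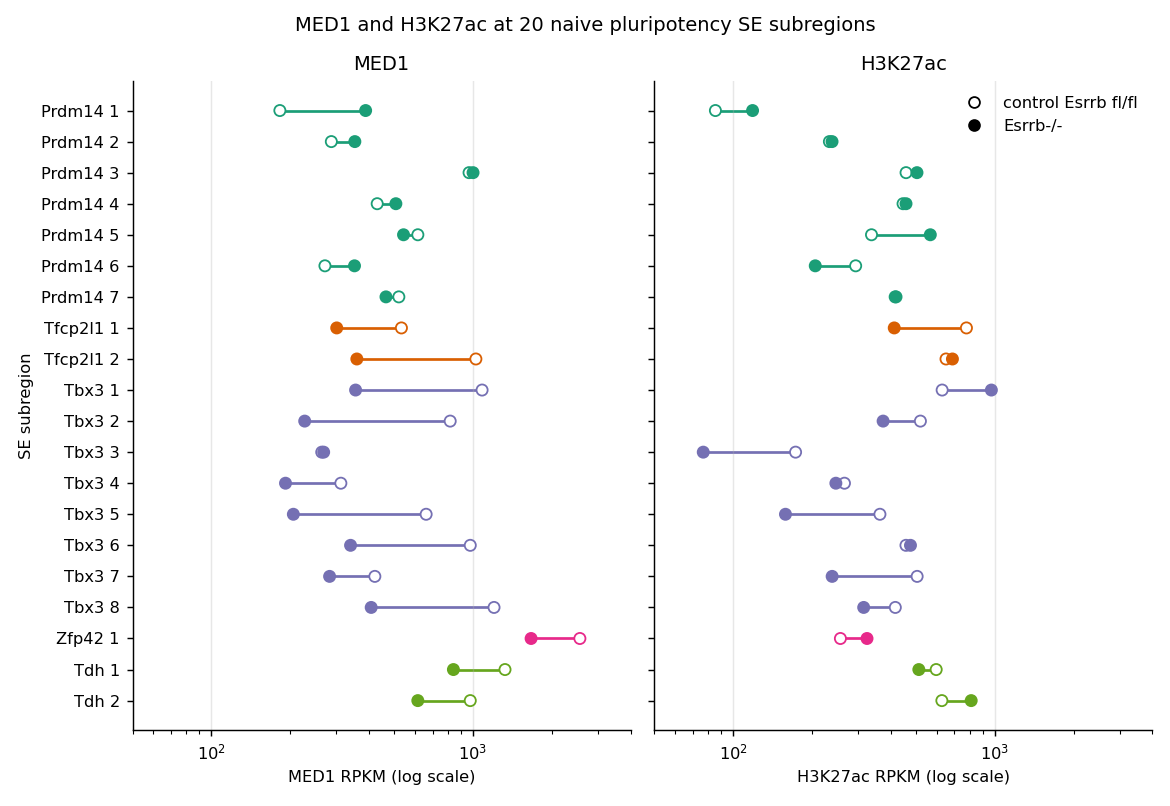
MED1 (left) and H3K27ac (right) RPKM on a log axis for the 20 subregions, with control Esrrb fl/fl ESCs as open and Esrrb-/- ESCs as filled circles, 1 pooled value each. For MED1 the filled circle lies left of the open circle at 14 of the 20 subregions, and at 9 of them for H3K27ac.

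The Prdm14 locus had about as much MED1 RPKM in Esrrb-/- as in control ESCs, though with reads not scaled its summed log2 fold change was -0.71. Its 7 subregions lie on chromosome 1 in no annotated gene, beyond the 3′ end of Prdm14 (chr1:13103538-13117244, minus strand) and 22.5 to 57.2 kb from its start. The highest MED1 of the locus in both genotypes was at subregion 3 (chr1:13074107-13075526), with 965 RPKM in control and 1000 in Esrrb-/- ESCs. Its MED1 log2 fold change was 0.05 (95% counting interval -0.15 to 0.25), so the pair of values was not separated by counting error. H3K27ac there was 458 RPKM in control and 504 in Esrrb-/- ESCs (log2 fold change 0.14).

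The 2 longest Prdm14 subregions had slightly more MED1 RPKM in Esrrb-/- ESCs, and less with reads not scaled. Subregion 2 (chr1:13064349-13069297) had 287 RPKM of MED1 in control and 353 in Esrrb-/- ESCs (log2 fold change 0.30, 0.11 to 0.48). Subregion 4 (chr1:13083595-13087343) had 430 and 507 RPKM (log2 fold change 0.24, 0.06 to 0.41). With RPKM as deposited H3K27ac was nearly equal in both genotypes, with 233 and 239 RPKM at subregion 2 and 446 and 457 RPKM at subregion 4. Its log2 fold changes at these 2 subregions were -0.21 and -0.20 with reads not scaled. They were -0.45 and -0.44 with reads scaled to their sum over all subregions. At subregion 7 (chr1:13093432-13094739), the nearest to the gene, MED1 was 520 RPKM in control and 465 in Esrrb-/- ESCs and H3K27ac was 416 and 419 RPKM, and both intervals included 0.

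The only subregion of the 20 that was higher in MED1 by 1.5 times was Prdm14 subregion 1 (chr1:13059719-13060054). It had 183 RPKM in control and 389 in Esrrb-/- ESCs (log2 fold change 1.08, 0.28 to 1.90), and its interval is wide because it rests on 26 and 30 reads. Its H3K27ac of 85.5 RPKM in control was the lowest of the 20 subregions and rank 669 of 671, and in Esrrb-/- ESCs it was 119 RPKM. The other short subregions, 5 (chr1:13090962-13091138) and 6 (chr1:13091381-13091615), gave MED1 intervals that included 0. Subregion 5 had 615 and 542 RPKM of MED1 in control and Esrrb-/- ESCs, and subregion 6 had 272 and 352 RPKM. Their H3K27ac differed in opposite directions, from 338 to 566 RPKM at subregion 5 (log2 fold change 0.74, 0.33 to 1.17) and from 294 to 206 RPKM at subregion 6 (log2 fold change -0.51, -1.01 to -0.03).

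Prdm14 subregion 2 shares sequence with the second Tdh subregion. A stretch of 147 bases with 1 match to GGGTGTGG and 1 to AAGGTCA is identical at 141 positions (95.9%) to a stretch of the Tdh locus, and among the 671 subregions no other held a match of at least 100 bases at 90% identity. It is shown because reads from near-identical copies may be placed at either, and how much of the MED1 at these subregions comes from such reads was not tested. Capitals mark the 2 motif matches.
Prdm14 subregion 2, chr1:13066508-13066654, plus strand: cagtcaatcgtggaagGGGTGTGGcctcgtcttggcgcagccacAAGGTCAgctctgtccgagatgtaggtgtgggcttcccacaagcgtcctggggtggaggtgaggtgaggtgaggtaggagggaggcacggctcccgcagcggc
With RPKM as deposited MED1 differed in opposite directions at the pair, with log2 fold changes of 0.30 at Prdm14 subregion 2 and -0.67 at Tdh subregion 2. With reads not scaled both were lower, at -0.58 and -1.55. Elsewhere in Prdm14 subregion 2, stretches were shared with other subregions too, so that 48 of them matched some part of it, and 27 matched some part of Tdh subregion 2.

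The Tfcp2l1 locus had less MED1 in Esrrb-/- ESCs, and H3K27ac differed beyond counting error at 1 of its 2 subregions. Both lie on chromosome 1 in introns of Tfcp2l1 (named Tcfcp2l1 in the annotation, chr1:120524522-120581744, plus strand), 18.0 and 19.2 kb from its start. Subregion 2 (chr1:120543728-120545248) had 1025 RPKM of MED1 in control and 360 in Esrrb-/- ESCs (log2 fold change -1.51, -1.80 to -1.23), which ranked 35 of 671 from the lowest. Its H3K27ac was 650 RPKM in control and 688 in Esrrb-/- ESCs, with an interval that included 0 (log2 fold change 0.08, -0.03 to 0.19). At subregion 1 (chr1:120542501-120543005) both measures were lower. MED1 there was 532 RPKM in control and 301 in Esrrb-/- ESCs (log2 fold change -0.82, -1.41 to -0.26, and -0.54 with reads scaled to their sum over all subregions, short of 1.5 times). H3K27ac was 778 RPKM in control, the highest of the 20 subregions and rank 52 of 671, and 412 in Esrrb-/- ESCs (log2 fold change -0.91, -1.14 to -0.70). Neither subregion held a match to AAGGTCA, ATGCAAAT, GGGTGTGG or TTCCNGGAA.

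The Tbx3 locus had the lowest summed MED1 log2 fold change of the 5 loci. Its 8 subregions span 33151 bases of chromosome 5, from within Tbx3 (chr5:120120678-120134733, plus strand) to 42.1 kb from its start. In 5 of them MED1 was lower by more than 1.5 on the log2 scale, and in control ESCs these 5 held the most MED1 of the locus, 662 to 1203 RPKM. In Esrrb-/- ESCs all 8 lay between 192 and 408 RPKM.

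Tbx3 subregion 1 (chr5:120130287-120133422) covers exonic sequence of Tbx3, including coding and untranslated parts. Its MED1 was 1083 RPKM in control and 356 in Esrrb-/- ESCs, 0.329 times the control value (log2 fold change -1.60, -1.80 to -1.41). H3K27ac went the other way, from 629 RPKM in control to 969 in Esrrb-/- ESCs (log2 fold change 0.62, 0.55 to 0.70), so that MED1 and H3K27ac log2 fold changes differed by -2.23. With RPKM as deposited it was the only 1 of the 11 subregions lower in MED1 at which H3K27ac was higher by 1.5 times, and under the other scalings tried no subregion was higher in H3K27ac by that much.

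Subregion 2 (chr5:120135302-120137478) overlaps an exon of Gm16065 just beyond Tbx3 and had the lowest MED1 log2 fold change of the 20, rank 9 of 671. It had 818 RPKM in control and 227 in Esrrb-/- ESCs (log2 fold change -1.84, -2.14 to -1.56), with 519 and 374 RPKM of H3K27ac. Subregion 6 (chr5:120159890-120160961) had 976 and 340 RPKM of MED1 (log2 fold change -1.52, -1.87 to -1.18) and 457 and 476 RPKM of H3K27ac. Subregion 8 (chr5:120162799-120163437), with 2 matches to AAGGTCA, had the most MED1 of the locus in both genotypes, 1203 and 408 RPKM (log2 fold change -1.56, -1.98 to -1.16), and 416 and 315 RPKM of H3K27ac. These 3 and subregion 1 are the Tbx3 subregions with AAGGTCA.

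Subregion 5 (chr5:120154925-120157646) was lower in both measures and held no AAGGTCA. Its MED1 was 662 RPKM in control and 206 in Esrrb-/- ESCs (log2 fold change -1.68, -1.97 to -1.41). Its H3K27ac was 364 and 158 RPKM, a log2 fold change of -1.19 (-1.35 to -1.05) that was the lowest of the 20 subregions and rank 31 of 671. Subregions 3 (chr5:120141164-120141681) and 7 (chr5:120161648-120162430) were lower by 1.5 times in H3K27ac but not in MED1. At subregion 3 H3K27ac was 173 and 76.8 RPKM (log2 fold change -1.16, -1.69 to -0.68), while MED1 was 264 and 269 RPKM. At subregion 7 H3K27ac was 504 and 239 RPKM (log2 fold change -1.08, -1.31 to -0.85) and MED1 was 421 and 283 RPKM (log2 fold change -0.57, -1.07 to -0.10), just short of 1.5 times. The shortest subregion, 4 (chr5:120145033-120145146), had 312 and 192 RPKM of MED1 from 15 and 5 reads, and its interval of -2.52 to 0.83 allows either direction. Its log2 fold change of -0.70 as deposited was -0.56 when centred and -0.43 with reads scaled to their sum. H3K27ac there was 266 and 247 RPKM, also with an interval that included 0.

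Within the Tbx3 locus subregions 1 and 5 held similar shares of the MED1 reads in both genotypes but not of the H3K27ac reads. Subregion 1 held 36.5% of the MED1 reads of the locus in control and 35.1% in Esrrb-/- ESCs, but 36.8% and 57.9% of the H3K27ac reads. Subregion 5 held 19.4% and 17.6% of the MED1 reads and 18.5% and 8.21% of the H3K27ac reads. The smaller subregions 3 and 7 held a larger share of the MED1 reads in Esrrb-/- ESCs, from 1.47% to 4.37% and from 3.55% to 6.97%. Summed over the locus with RPKM as deposited, H3K27ac was 480 RPKM in control and 471 in Esrrb-/- ESCs, so that higher and lower subregions offset each other. The summed log2 fold change was -0.27 when centred, -0.27 with reads not scaled and -0.51 with reads scaled to their sum over all subregions. Under these scalings only subregion 1 of the locus was higher in H3K27ac.

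**Figure D2:**
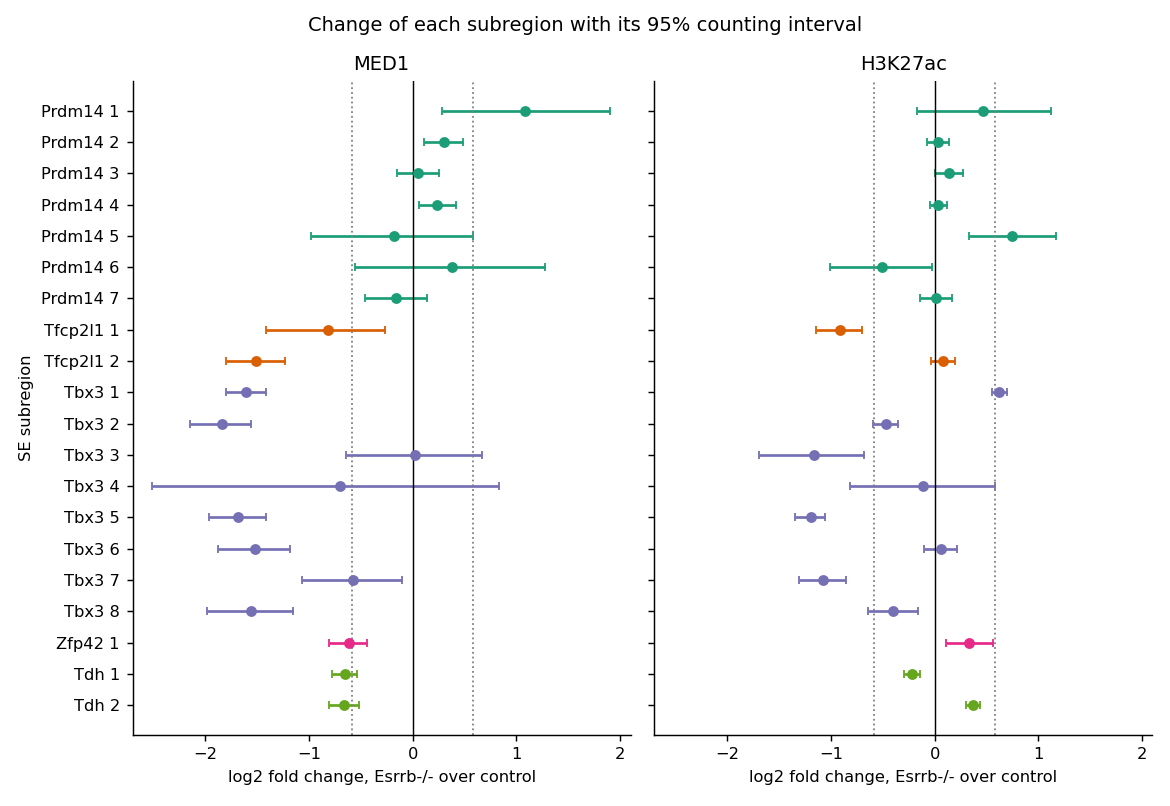
Log2 fold change of Esrrb-/- over control ESCs for MED1 (left) and H3K27ac (right) at the 20 subregions, with bars for the 95% counting interval and dotted lines at 1.5 times in either direction. The Tbx3 subregions 1, 2, 5, 6 and 8 and Tfcp2l1 subregion 2 form the group below -1.5 for MED1, while their H3K27ac values lie on both sides of 0.

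Zfp42 had the most MED1 of the 20 subregions and little H3K27ac. Its single subregion (chr8:44405863-44406730) lies in no annotated gene, 13.5 kb upstream of the start of Zfp42 (chr8:44380422-44392363, minus strand). MED1 was 2560 RPKM in control, rank 18 of 671 from the highest, and 1666 RPKM in Esrrb-/- ESCs, rank 42. The log2 fold change was -0.62 (-0.80 to -0.44), close to the limit of 1.5 times, and it fell short of that limit when centred (-0.48) or with reads scaled to their sum over all subregions (-0.34). H3K27ac was 257 RPKM in control, rank 608 of 671, and 324 RPKM in Esrrb-/- ESCs (log2 fold change 0.34, 0.11 to 0.57). Within each genotype it held the most MED1 of the 20, and the other 19 reached at most 1324 RPKM in control and 1000 in Esrrb-/- ESCs.

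The Tdh locus had nearly the same MED1 log2 fold change at both of its subregions. They lie on chromosome 14 in Tdh (chr14:64111184-64127929, minus strand), and subregion 2 (chr14:64124611-64128350) covers the start of the gene while subregion 1 (chr14:64118859-64122882) covers coding and untranslated exonic sequence. MED1 was 1324 RPKM in control and 841 in Esrrb-/- ESCs at subregion 1 (log2 fold change -0.65, -0.77 to -0.54). It was 976 and 615 RPKM at subregion 2 (log2 fold change -0.67, -0.81 to -0.52). Both fell short of 1.5 times when centred (-0.51 and -0.52) and with reads scaled to their sum over all subregions (-0.38 and -0.39). H3K27ac differed between the pair, with 596 and 512 RPKM at subregion 1 (log2 fold change -0.22, -0.30 to -0.14) and 627 and 812 RPKM at subregion 2, which holds the start of the gene (log2 fold change 0.37, 0.30 to 0.44, but below 0 with reads scaled to their sum over all subregions). Subregion 1 held 59.4% of the MED1 reads of the locus in control and 59.5% in Esrrb-/- ESCs, and 50.6% and 40.4% of the H3K27ac reads.

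The loci were then compared by the reads summed over the subregions of each. Summed MED1 was 833 RPKM in control and 285 in Esrrb-/- ESCs at Tbx3, a log2 fold change of -1.55 (-1.66 to -1.43), and 902 and 345 RPKM at Tfcp2l1, a log2 fold change of -1.39 (-1.64 to -1.14). Tfcp2l1 minus Tbx3 was 0.16 (-0.11 to 0.43), so these neighbours in the order were not separated by counting error. Tdh followed with 1156 and 732 RPKM (log2 fold change -0.66, -0.75 to -0.57) and Zfp42 with -0.62, and Zfp42 minus Tdh was 0.04 (-0.16 to 0.24). Prdm14 stood last with 437 and 492 RPKM (log2 fold change 0.17, 0.07 to 0.27). Between these 3 levels the differences exceeded counting error. Tfcp2l1 minus Tdh was -0.73 (-0.99 to -0.47), and Prdm14 minus Zfp42 was 0.79 (0.59 to 0.99). These differences between loci do not depend on the scaling of the libraries, which shifts all loci alike, but they have no replicate check.

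Subregions less than 15 kb apart were joined into 224 blocks across the series, and each locus formed 1 block. Ranked from the lowest summed MED1 log2 fold change, Tbx3 was 11, Tfcp2l1 17, Tdh 67, Zfp42 70 and Prdm14 178 of 224. The median was -0.24 over all blocks and -0.49 over the 95 blocks that hold DM subregions only, which all 5 loci are. Tbx3 and Tfcp2l1 thus lay well below the median of such blocks, Tdh and Zfp42 slightly below it and Prdm14 above it.

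Summed H3K27ac spread less. Its log2 fold changes were -0.14 at Tfcp2l1, -0.03 at Tbx3, 0.06 at Prdm14, 0.10 at Tdh and 0.34 at Zfp42, and they ranked 50, 62, 70, 74 and 114 of 224 blocks. The median over all blocks was 0.33 and that over blocks with DM subregions only 0.11. Under the other scalings tried the values of Tfcp2l1 and Tbx3 lay further below 0, and those of Prdm14 and Tdh lay below 0 as well. The value of Zfp42 lay below 0 only when reads were scaled to their sum over all subregions (-0.14).

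**Figure D3:**
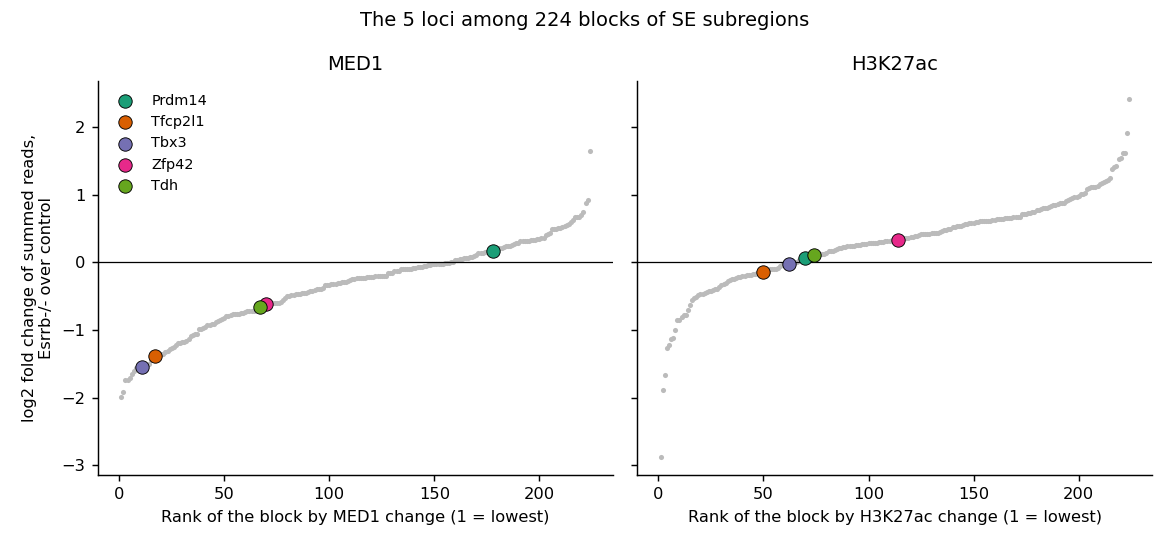
Summed log2 fold change of the 224 blocks in rank order for MED1 (left) and H3K27ac (right), with the 5 loci as large coloured circles. For MED1 the loci run from rank 11 (Tbx3) to rank 178 (Prdm14), and for H3K27ac they lie between ranks 50 and 114.

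The MED1 and H3K27ac log2 fold changes were weakly related across subregions. Pearson's r was 0.19 over the 20 subregions, 0.32 over the 488 DM subregions and 0.33 over all 671, and Spearman's rho was 0.16, 0.32 and 0.30. These describe subregions of the same pooled libraries, many of them from the same SE, and are not independent points.

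**Figure D4:**
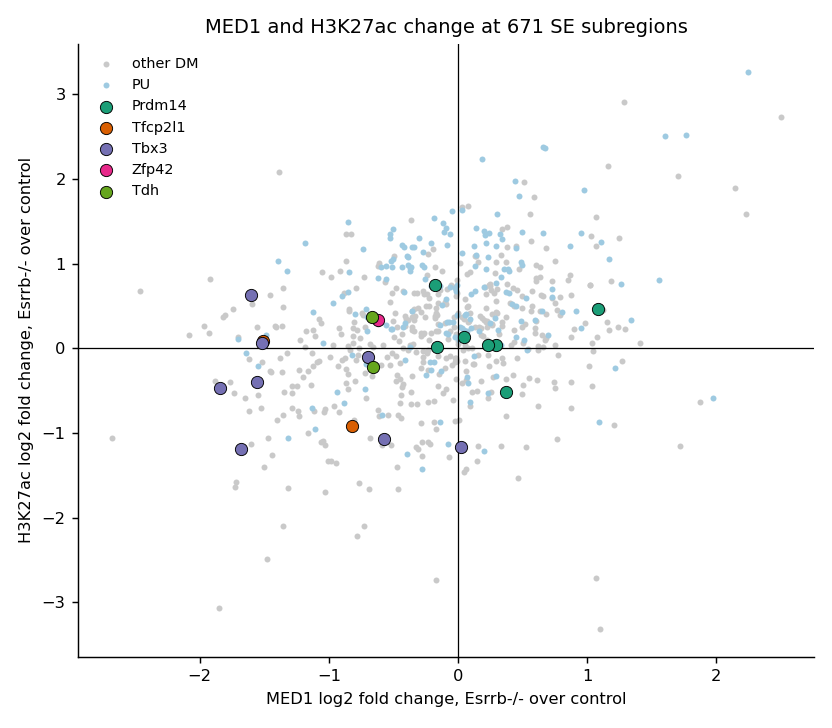
MED1 against H3K27ac log2 fold change, Esrrb-/- over control, for all 671 subregions, with other DM subregions in grey, PU subregions in light blue and the 5 loci in their own colours. Of the 20 coloured points, 14 lie left of 0 for MED1, and 9 lie below 0 for H3K27ac.

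Among the 20 subregions the median MED1 log2 fold change was -1.09 for the 8 with AAGGTCA and -0.37 for the 12 without it. Of these, 4 of the 8 and 4 of the 12 are at Tbx3, and without that locus the medians were -0.42 for the 4 with and -0.06 for the 8 without, a comparison added after seeing the data. Over all DM subregions the medians were -0.47 for the 184 with and 0.03 for the 304 without AAGGTCA. Longer subregions hold the letters more often, so the DM subregions were also read within length classes. The medians with and without were -0.25 and 0.10 under 500 bases, -0.60 and -0.01 from 500 to under 1500 bases, and -0.37 and -0.01 at 1500 bases or more. Over the PU subregions they were -0.08 for the 52 with and -0.02 for the 131 without. The H3K27ac medians of DM subregions were 0.07 with and 0.14 without. A match says that the letters are present and not that ESRRB binds there, and Tfcp2l1 subregion 2, Tbx3 subregion 5 and Zfp42 had lower MED1 without a match.

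Of the other sequence features, a match to GGGTGTGG was present in 6 of the 20 subregions (30.0%) and in 17.6% of DM subregions. TTCCNGGAA was present in 3 (15%) and in 5.33%, and ATGCAAAT, the octamer bound by OCT factors, in 1 (5.00%) and in 8.81%. The 20 subregions were 114 to 4949 bases long with a median of 1190, and the DM subregions had a median of 948. Median CpG density was 17.7 per kb, against 14.99 in DM and 23.3 in PU subregions. It was highest at Prdm14 subregion 5, with 39.5 per kb, and was 37.3 and 37.2 per kb at Tbx3 subregions 1 and 2.

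Other genes of the naive pluripotency network were read from the same values, by the subregions within 200 kb of each gene. Of 14 genes listed, 11 had such subregions, 53 in all, with 42 DM and 11 PU. With RPKM as deposited, MED1 was lower by 1.5 times at 10 of the 53 (18.9%) and higher at 14 (26.4%), against 26.8% and 14.8% of all subregions. The median of its log2 fold changes was 0.30, above the -0.14 of all subregions. With reads not scaled each MED1 log2 fold change lies 0.88 lower, so that this median lies below 0. H3K27ac was lower by 1.5 times at 7 (13.2%) and higher at 17 (32.1%), against 15.1% and 30.6% of all subregions, with a median of 0.32. MED1 was lower at 2 subregions each of Klf4 and Nanog and at 3 each of Fgf4 and Tet2, and at none of Esrrb, Klf2, Klf5, Nr5a2, Sall4 and Gbx2. Dppa3 has the same 10 subregions as Nanog, and Nr0b1, Stat3 and Tcl1 had none in the deposited values.

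The lowest summed MED1 log2 fold changes of this list were at Klf4, a Krüppel-like factor of the network (-1.19, -1.29 to -1.10), and at Fgf4, the growth factor that drives exit from naive pluripotency (-0.99, -1.15 to -0.84). Both lay between Tfcp2l1 and Tdh in the order of the 5 loci. The highest were at the homeobox gene Gbx2 (0.67, 0.42 to 0.91) and at Esrrb itself (0.48, 0.42 to 0.53), above Prdm14. These values are as deposited, and with reads not scaled each lies 0.88 lower, which puts even the highest below 0. H3K27ac at Klf4 was lower as well, with a summed log2 fold change of -0.85, whereas at Tbx3 and Tfcp2l1 it was -0.03 and -0.14. The Esrrb locus is the one mutated in Esrrb-/- ESCs, and ChIP-seq of its SE does not measure whether the gene is deleted, so these values are no check of the genotype.

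**Figure D5:**
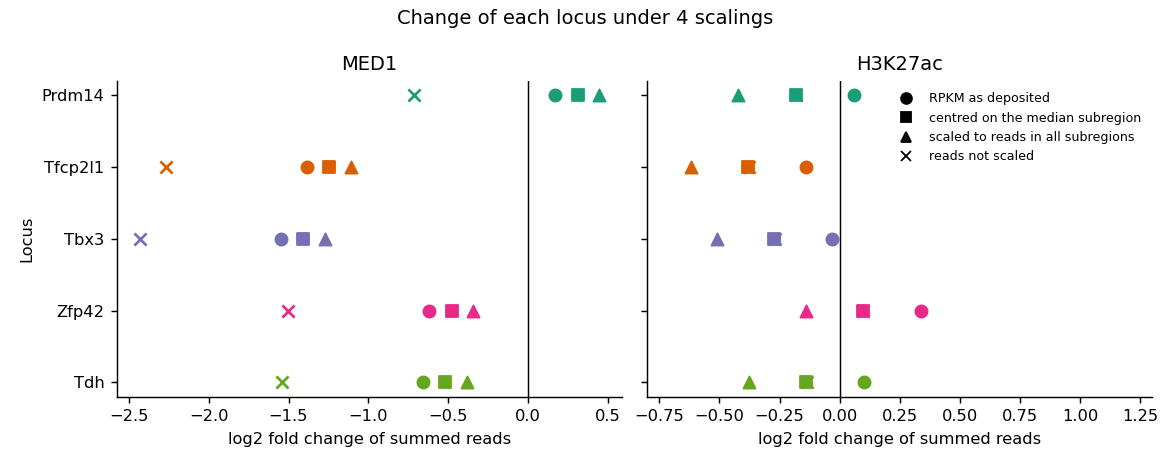
Summed log2 fold change of each locus for MED1 (left) and H3K27ac (right) with RPKM as deposited (circles), centred on the median subregion (squares), scaled to the reads in all subregions (triangles) and with reads not scaled (crosses, under the squares for H3K27ac). Each scaling shifts all loci alike, so their order cannot change. Prdm14 MED1 lies above 0 in 3 of the scalings and at -0.71 without scaling.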

How the data were processed

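Trimmomatic, Bowtie2 and Picard and the build mm9 are named in the submitters' processing notes. Per the study's methods, reads were trimmed, aligned and stripped of duplicates, and counted on SE subregions. The authors deposited RPKM, 1 value per subregion and condition, and how the 2 libraries of a condition were combined is not given in the sources used here.

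Rows of the 4 conditions were matched by chromosome, start, end and type. The 20 subregions, the gene list and the motifs were chosen with earlier results of these data known. All 20 are named in the text. Of the gene list, fold changes are given for the 2 lowest and 2 highest genes by summed MED1 log2 fold change, and the others are given by counts. The pseudocount was 1 RPKM, and no filter on low values was used. A fold change on this scale understates that of low values.

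RPKM multiplied by length was a whole multiple of 1 step in 100% of rows (tolerance 0.001 of a read), and the smallest whole numbers were taken as reads, known up to a common factor. Intervals are exact conditional binomial (Clopper-Pearson) 95% intervals, and intervals of differences between loci use a normal approximation on the log scale. They cover counting error only, and a common factor would change their width. The functions were tested on simulated data.

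Sequence and gene positions came from mm9 (NCBIM37) and its GENCODE annotation, coordinates counted from 1. Subregions were aligned to each other with BLAST 2.17.0. Calculations used scipy 1.17.1, pandas 2.3.3, pysam 0.24.0, numpy 2.4.6 and matplotlib 3.10.9 under Python 3.11.15. Another pseudocount, length and read minimums, other scalings and leaving out each locus were tried as alternatives. The input libraries were not used here.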

Additional observations from a re-analysis of the deposited data

How the results depend on the processing

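No paired analysis was possible because the values of the replicate libraries of a condition are pooled, and leaving out a replicate could not be done for the same reason. With a pseudocount of 0.1 or 10 RPKM no count of subregions moved. Centred on the median of all subregions, MED1 was lower by 1.5 times at 7 and H3K27ac lower at 7 and higher at 0 of the 20 subregions, with medians of -0.50 for MED1 and -0.22 for H3K27ac. With reads scaled to their sum over all subregions, MED1 was lower at 6 and higher at 2, H3K27ac lower at 9 and higher at 0, and the medians were -0.36 and -0.46. With reads not scaled, MED1 was lower at 17 and higher at 0, H3K27ac lower at 7 and higher at 0, and the medians were -1.52 and -0.22. Each scaling shifts all subregions alike, and the shares of all subregions past 1.5 times under these scalings are not given here. Limited to at least 500 bases, MED1 was higher at 0 and H3K27ac higher at 1 of the 16 subregions left. Limited to at least 100 reads, MED1 was higher at 0 of 15, since Prdm14 subregion 1 is removed. Without the Prdm14 locus, MED1 was higher at 0 and H3K27ac at 1, and the medians were -0.82 and -0.22. Without the Tbx3 locus, MED1 was lower at 5, H3K27ac lower at 1 and higher at 1, and the medians were -0.17 and 0.059. Under these scalings MED1 of single subregions changed sign at 5 of 20 without scaling, at 2 with reads scaled to their sum and at 0 when centred. H3K27ac changed sign at 6, 9 and 6 of 20. The MED1 interval of 5 subregions, 3 at Prdm14 and 2 at Tbx3, rests on under 100 reads, so that a difference of 1.5 times can fall within it. Deposited and unscaled MED1 log2 fold changes differ by 0.88, and which total gives the true level was not tested. Mapped read numbers in the paper's reporting summary, summed per condition, are similar in the 2 genotypes. They are thus closer to no scaling than to the deposited totals, and scaling to them was not tried. MED1 was lower without H3K27ac being lower at 9 of the 20 subregions as deposited. In alternatives chosen after seeing the data, this count was 3 when centred, 3 with reads scaled to their sum, 11 with reads not scaled and 4 without the Tbx3 locus. For the scalings in this order, the shares of DM subregions were 15.4%, 8.2% and 53.1%, and of all subregions 13.7%, 7.45% and 56.3%.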
